A study of Mus musculus with 4 samples.

Results

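The genes described here encode ubiquitin-conjugating enzymes, and their ATF4 peaks were taken from a pull-down of this transcription factor in mouse heart ventricle. Members were all protein-coding genes of the mouse build mm10 (RefSeq table of GRCm38.p6) whose symbol starts with Ube2, and there were 37 of them among 21900 protein-coding genes. The symbol takes in catalytic enzymes, the inactive variants Ube2v1 and Ube2v2, and Ube2cbp, whose product is a ubiquitin ligase that binds such enzymes. ATF4 was pulled down on streptavidin beads from crosslinked heart ventricle of mice aged 4 weeks, in 2 samples (titled ATF4-bio1 and ATF4-bio2, here replicates 1 and 2). Another 2 samples were input chromatin, whose values are not analysed here. The labels give no strain or genotype, and their antibody field reads AAV for the pull-down samples and none for input, with no explanation. They do not say whether the ATF4 was the heart's own, nor whether the samples came from separate animals, so an SD measures only the spread between these samples.

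Ubiquitin is activated by an E1 enzyme, passed to the active cysteine of an E2 conjugating enzyme and attached to a target with the help of an E3 ligase. The E2 takes part in deciding which chain is built: Lys48-linked chains mark proteins for the proteasome, Lys63-linked chains serve signalling and repair, and some E2 enzymes carry SUMO, NEDD8 or ISG15 in place of ubiquitin. In heart muscle this cascade feeds the turnover of sarcomere and misfolded proteins. ATF4 is the main transcription factor of the integrated stress response and, as a partner of C/EBP or other basic leucine zipper proteins, reads sequences such as TGATGNAA and relatives of the cyclic AMP response element TGACGTCA.

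The series holds a peak list for each pull-down sample (78746 peaks in replicate 1 and 88812 in replicate 2) and a series-wide list of 41639 peaks. The value of a peak is its fold enrichment over a constant background, so the input level at the site was not divided out and sites that are high in input as well cannot be told apart from bound ones. A series-wide fold is the higher of both replicates, for which reason each replicate's value is given. No read counts are given, so depth is unknown. A peak counted as at a gene end when it came within 1 kb of the first or last base of the gene model. A wider window takes the gene body with 10 kb on each side. As a check of the tissue, all 8 cardiomyocyte markers had a series-wide peak at a gene end, against 1 of 4 endothelial, 2 of 4 fibroblast, 1 of 4 immune and 0 of 4 neuronal markers. Among all protein-coding genes 34.9% had one, so the counts of 1 and 2 of 4 lie around that share and do not show that those cell types were absent. In the wider window the lists differed less. There all 8 cardiomyocyte markers and 3 of 4 markers in each other list, neuronal included, had a series-wide peak, beside 61.1% of all genes. Heart ventricle holds several cell types, and the lists do not say in which cells a peak arose.

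Promoters are printed first, because the peaks at the starts of the members are read against them. RefSeq (GRCm38.p6) lists promoters of 30 of the 37 members, each 250 bases before to 50 bases after a gene start, 41 in all. In the promoters of Ube2h and of Ube2b the capitals mark TGACGTCA. They are shown because they were the only member promoters with a match to any of the motifs searched, and both lay under a series-wide peak.
Ube2h (chr6:30304490-30304789, minus strand): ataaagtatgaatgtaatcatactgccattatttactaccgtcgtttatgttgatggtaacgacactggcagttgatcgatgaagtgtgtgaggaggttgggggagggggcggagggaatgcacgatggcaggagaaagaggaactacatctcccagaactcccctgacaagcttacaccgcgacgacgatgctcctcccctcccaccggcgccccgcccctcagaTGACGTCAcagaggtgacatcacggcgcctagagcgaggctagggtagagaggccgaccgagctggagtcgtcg
Ube2b (chr11:52000737-52001036, minus strand): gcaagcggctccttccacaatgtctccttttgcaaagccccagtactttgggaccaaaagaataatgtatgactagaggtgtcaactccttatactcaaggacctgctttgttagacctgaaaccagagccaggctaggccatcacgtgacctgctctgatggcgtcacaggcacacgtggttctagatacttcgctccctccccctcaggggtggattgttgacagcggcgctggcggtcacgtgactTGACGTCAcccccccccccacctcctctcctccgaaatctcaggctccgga
In the following pair the capitals mark the 21 bases centred on the series-wide summit. These are the member promoters with the highest fold among those that contain the summit itself.
Ube2j2 (chr4:155943563-155943862, plus strand): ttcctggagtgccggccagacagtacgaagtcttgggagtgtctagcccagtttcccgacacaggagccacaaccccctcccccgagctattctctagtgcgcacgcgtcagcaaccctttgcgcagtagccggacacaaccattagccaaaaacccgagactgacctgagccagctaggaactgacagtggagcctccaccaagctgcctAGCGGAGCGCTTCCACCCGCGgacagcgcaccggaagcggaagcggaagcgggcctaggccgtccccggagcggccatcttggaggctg
Ube2f (chr1:91250054-91250353, plus strand): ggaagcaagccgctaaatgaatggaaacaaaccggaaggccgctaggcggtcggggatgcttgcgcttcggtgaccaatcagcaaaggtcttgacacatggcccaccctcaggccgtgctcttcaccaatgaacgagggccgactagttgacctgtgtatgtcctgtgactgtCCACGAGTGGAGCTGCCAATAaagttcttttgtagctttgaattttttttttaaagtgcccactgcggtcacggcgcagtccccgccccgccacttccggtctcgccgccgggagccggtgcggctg

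Of the 37 members, 19 (51.4%) had a series-wide peak at a gene end, where 34.9% of all protein-coding genes did. Replicate 1 had a peak at the ends of 31 members (83.8%, all genes 48.2%) and replicate 2 at those of 32 (86.5%, all genes 50.2%). The plot of shares shows these values. Both replicate lists held one at 30 members (81.1%, all genes 45.2%). These shares lay above the background in each list, but genes are not replicates, the design holds no contrast between groups with peak lists, and no test was made. The height of the peaks was close to that of all genes: the strongest series-wide peak at an end had a median of 12.9-fold over the 19 members and 13.3-fold over the 7644 genes with such a peak. In replicate 1 the medians were 9.50 for members and 10 for all genes, and in replicate 2 they were 10.2 for both.

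**Figure D1:**
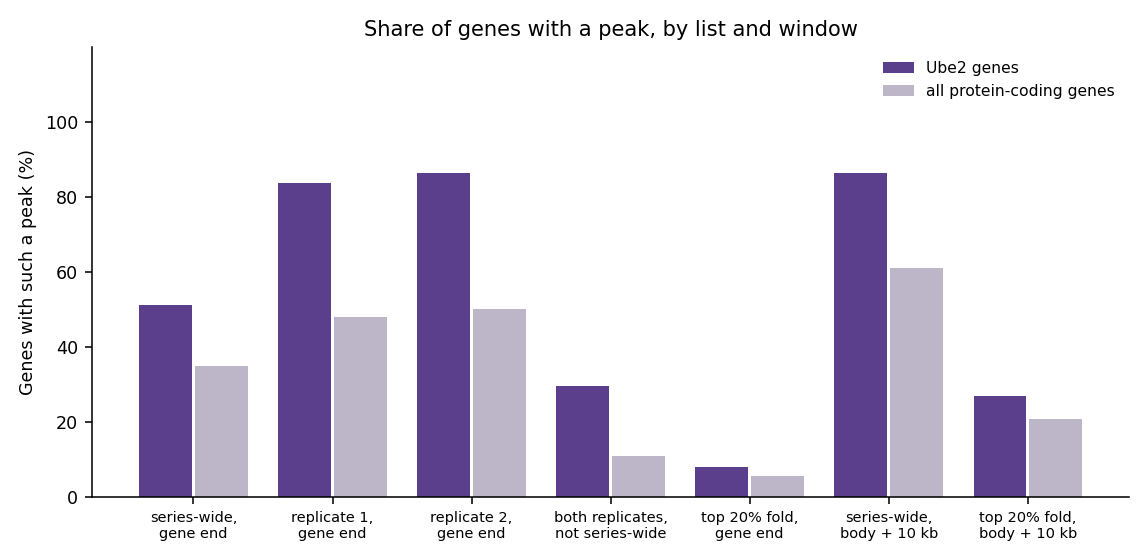
Share of genes with a peak (%), for the 37 Ube2 genes (dark bars) and all 21900 protein-coding genes (light bars), by peak list and window. The share of Ube2 genes was above that of all genes in each of the 7 pairs, most widely in the replicate lists (83.8% against 48.2% and 86.5% against 50.2%), and least for peaks in the top 20% of folds.

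Counts in the role groups that follow stand beside the same 34.9% of all genes, and the groups are too small for a share to be read closely. Of the 5 members of the ubiquitin-like group 4 had a series-wide peak at a gene end, and the group contained the member with the strongest gene-end peak. Ube2l6, the conjugating enzyme for the interferon-induced modifier ISG15, had a peak at chr2:84799223-84799518, 568 bp inside the gene from its start and outside its listed promoter. Its fold was 23.0 in replicate 1 and 30.1 in replicate 2, 26.6 ± 5.05 on average (SD, n = 2). Ube2f and Ube2m both conjugate NEDD8, the modifier that activates cullin ligases. The Ube2f peak (chr1:91249992-91250420), whose summit lay 547 bp inside the gene model but 67 bases before the listed start printed above, had 20.5 and 19.9 in the replicates, 20.2 ± 0.392 (SD, n = 2), so this pair of values lay close together. Ube2m had 7.0 and 10.2 near its start, and a further peak of 9.50 and 8.87 past its other end, which lies within 1 kb of an end of Chmp2a. Ube2z, a conjugating enzyme loaded by the E1 Uba6, had its summit 6 bp upstream of the start, at 11.5 and 12.9.

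All 3 members of the Lys63 group had a series-wide peak at a gene end. Ube2n is the enzyme that builds Lys63 chains, and Ube2v1 and Ube2v2 are the inactive variants it pairs with. Ube2v2 had 14.0 in replicate 1 and 18.6 in replicate 2, 16.3 ± 3.26 (SD, n = 2; chr16:15594399-15594762). At Ube2n the values were 15.0 and 13.3, 14.1 ± 1.20 (SD, n = 2), with the summit 266 bp upstream of the start (chr10:95514706-95515242). Ube2v1 had 11.5 and 10.6 at its start. A second peak 2672 bp upstream of Ube2v1 was higher, at 17.0 and 27.0, with a spread of 22.0 ± 7.10 (SD, n = 2). At the gene ends Ube2n was the highest of the 3 in replicate 1 and Ube2v2 in replicate 2, while Ube2v1 was the lowest in both.

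Among the 6 members of the Lys48 and endoplasmic reticulum group, 4 had a series-wide peak at a gene end. Ube2j1 and Ube2j2 are anchored in the endoplasmic reticulum membrane and act, like Ube2g2, in the degradation of its misfolded proteins. By series-wide fold at a gene end Ube2j2 was the second highest of all members, with the summit 29 bp upstream of the start (chr4:155943489-155943994). That rank rests on replicate 2. The mean of both replicates was higher at Ube2l6 (26.6), Ube2f (20.2) and Ube2h (18.6). The replicates of Ube2j2 differed more than those of any other member with such a peak: 13.0 in replicate 1 and 22.6 in replicate 2, 17.8 ± 6.79 (SD, n = 2), a ratio of 1.74. Of 7522 genes with values in both replicates, 85 (1.13%) had a ratio of replicate 2 to replicate 1 at least as high. The other 18 members lay within 1.5-fold between replicates, with replicate 2 higher at 12 of all 19 and replicate 1 at 7. These counts were not worked out for all genes. The median ratio of replicate 2 to replicate 1 was 1.07 for the 19 members and 1.01 for the 7522 genes. Members enter these counts by a series-wide peak, and that list draws on both replicates. Closeness between the replicates is therefore not separate support. Ube2g1, a cytosolic relative of Ube2g2, had 12 and 12.9 at its start, and Ube2j1 (8.0 and 9.31) and Ube2g2 (8.50 and 8.87) had low values in both. Ube2k and Ube2r2, which build Lys48 chains, had no series-wide peak at their ends. Each had a peak inside the gene, of 19.5 and 13.7 at Ube2k and 8.0 and 10.2 at Ube2r2.

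**Figure D2:**
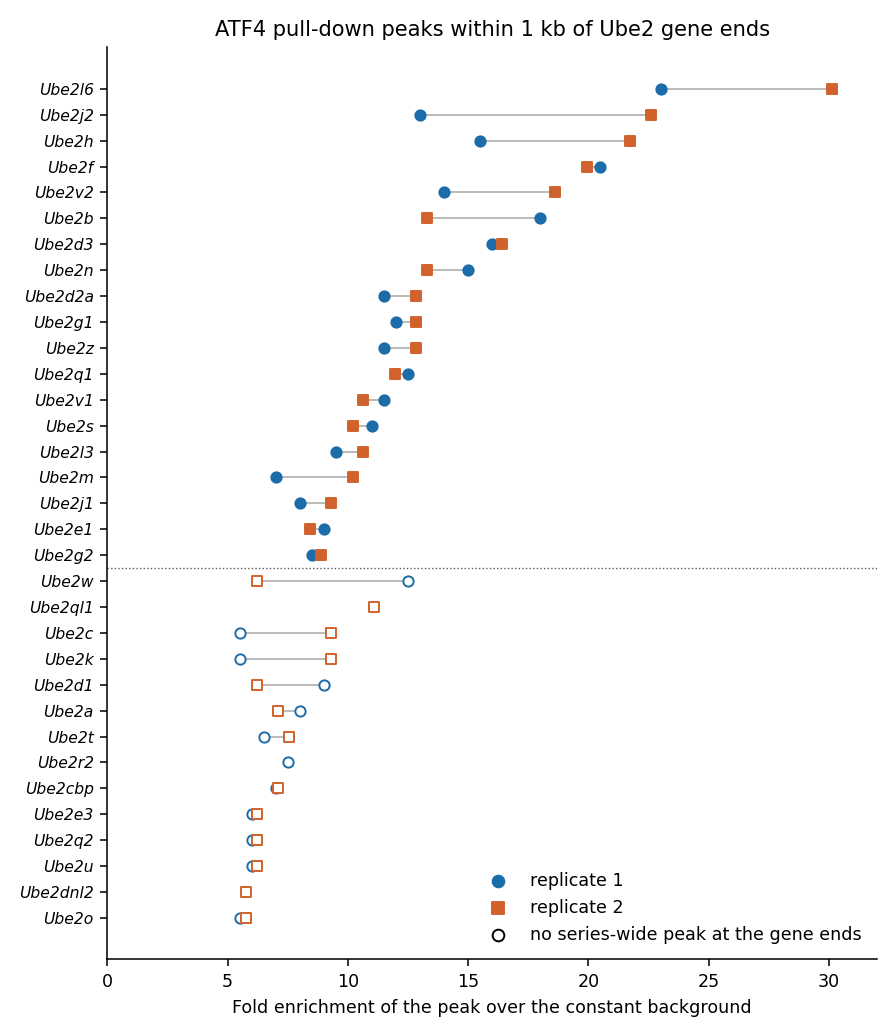
Fold enrichment at the gene ends of the 33 Ube2 genes with such a peak in any list, in replicate 1 (circles) and replicate 2 (squares); lines join values of a gene, and open symbols mark genes with no series-wide peak at their ends. Ube2l6 is highest in both replicates (23.0 and 30.1), the widest gap is at Ube2j2 (13.0 and 22.6), and open symbols lie at 12.5 or below.

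Of the 9 members grouped here as broad or other partners of RING ligases, 4 had a series-wide peak at a gene end, near the 34.9% of all genes. The group takes in Ube2h and Ube2w, and Ube2h is among those with a peak. Ube2h is known for its high level in late red cell formation and as the partner of the CTLH ligase. It had 5 series-wide peaks in the gene and 10 kb around it, the most of any member. Among them a peak at chr6:30302863-30303568, with its summit 1394 bp inside the gene and its edge within 1 kb of the start, reached 15.5 and 21.7, 18.6 ± 4.4 (SD, n = 2). The peak over the Ube2h promoter printed above (chr6:30304471-30304747) was lower, at 12 and 10.6. The match in it to TGACGTCA (chr6:30304556-30304563) began 24 bases before the start and lay 57 bp from the summit of replicate 1 and 28 bp from that of replicate 2. Ube2d3, of the widely used UBCH5 type, had 16.0 and 16.4 at its start, 16.2 ± 0.283 (SD, n = 2), and its relative Ube2d2a 11.5 and 12.9. The Ube2e1 peak, of 9.0 and 8.42, was at the far end of the gene and also within 1 kb of an end of Nkiras1. Ube2d1, Ube2e3 and Ube2w had end peaks in both replicate lists only, and Ube2d2b and Ube2e2 in none of the 3 lists. Ube2e2 is the longest member, with a gene model of 320722 bp and 4 series-wide peaks inside it of up to 14.6-fold.

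The DNA damage group held the highest peak of all members, and it was not at a gene end. Ube2a and Ube2b are the mouse counterparts of yeast Rad6, which modifies histone H2B and the clamp PCNA, and Ube2t serves the Fanconi anaemia pathway. Inside Ube2a, 4584 bp from its start, a peak at chrX:36878737-36878990 reached 52.5 in replicate 1 and 48.3 in replicate 2, 50.4 ± 2.96 (SD, n = 2). Only 0.867% of series-wide peaks (361) were at least as high. It was also narrow: 254 bp wide in the series-wide list and in replicate 1 and 230 bp in replicate 2, while the 361 peaks had a median width of 924 bp and this was the only 1 of them at most 254 bp wide. At the Ube2a start itself both replicates had a low peak (8.0 and 7.09) that the series-wide list does not hold.

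Ube2b was covered more broadly, most so in the series-wide list and in replicate 2. A series-wide peak of 1858 bp at chr11:51999277-52001134 lay over both promoters that RefSeq lists for Ube2b, and had 25.0 and 23.0, 24.0 ± 1.38 (SD, n = 2). The replicate peaks with these values were 662 bp wide in replicate 1 and 1835 bp in replicate 2. The gene model starts upstream of these promoters, so the series-wide peak counts as inside the gene, and it lies within 1 kb of an end of Cdkl3 as well. Its TGACGTCA (chr11:52000780-52000787) began 1 base before a listed start, 48 bp from the nearest summit in replicate 1 but 899 bp from that of the series-wide list and 1168 bp from that of replicate 2. At the start of the model a second peak had 18.0 and 13.3, 15.6 ± 3.33 (SD, n = 2; chr11:52004108-52004492), here with replicate 1 higher. Ube2t had low peaks at its start in both replicates (6.50 and 7.54) and none there in the series-wide list.

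The remaining members had series-wide folds of 12.5 or below at their ends. Ube2s and Ube2c are the pair with which the anaphase-promoting complex builds chains in mitosis. Ube2s had a series-wide peak of 11 and 10.2 at its start, and Ube2c had replicate peaks only, at 5.50 and 9.31. Ube2l3, which serves HECT and RBR ligases such as parkin, had 9.50 and 10.6 with the summit 25 bp upstream of the start. Of the 5 large or divergent members only Ube2q1 had a series-wide peak at an end, at 12.5 and 12, 12.2 ± 0.377 (SD, n = 2; chr3:89772719-89773472). Ube2u, a divergent member, had 4 series-wide peaks inside the gene, the highest at 29.0 and 26.6 (chr4:100524684-100525119). Ube2o, a large enzyme that also acts as a ligase, had 17.0 and 16.4 at its highest peak inside the gene. None of the 3 members outside the role groups, Ube2cbp, Ube2dnl1 and Ube2dnl2, had a series-wide peak at an end. Ube2dnl1 and Ube2dnl2 are short neighbours on the X chromosome, and values at such copies are uncertain where their sequences are alike.

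Members without an end peak in any list were few, while peaks in a single replicate were about as common as over all genes. In none of the lists was there an end peak at 4 members (10.8%, all genes 46.2%), among them Ube2d2b, Ube2dnl1 and Ube2e2. Another 3 had one in a single replicate (8.11%, close to the 8.04% of all genes): Ube2r2 in replicate 1 at 7.5, and Ube2ql1 (11.1) and Ube2dnl2 (5.76) in replicate 2. A larger set of 11 members (29.7%, all genes 11.0%) had end peaks in both replicate lists but none in the series-wide list. In 10 of the 11 the replicate peaks overlapped each other, and Ube2o was the exception. How often they overlap over all such genes was not worked out. The highest folds of the 11 members ran from 5.50 to 12.5, and the lowest fold in the series-wide list was 7.5. In the plot of replicate values these members are the open symbols. The value of 12.5 belonged to replicate 1 at Ube2w, an enzyme that modifies protein N termini, where replicate 2 had 6.21.

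In the window of the gene body with 10 kb, 32 of 37 members (86.5%) had a series-wide peak, against 61.1% of all genes. The 5 without one were Ube2c, Ube2d2b, Ube2dnl1, Ube2dnl2 and Ube2w. Without a series-wide end peak but with one in this window were 13 members (35.1%, all genes 26.2%). Replicate 1 had a peak in the window of 35 members (94.6%, all genes 72.3%) and replicate 2 in that of all 37 (100%, all genes 74.1%). The members' gene models had a median length of 30405 bp against 17146 bp, and a longer gene has a larger window. Per 100 kb of window there were 2.88 series-wide peaks for members and 2.58 for all genes. At 4 or more peaks the share was 13.5% for members (Ube2h with 5, and Ube2d2a, Ube2e2, Ube2g2 and Ube2u with 4 each) and 13.7% for all genes. The strongest peak in this window had a median of 15.5-fold over the 32 members and 17.0-fold over all genes with one.

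Most peaks in these windows lay away from the gene ends, as the plot of positions shows. The ends make up a small part of most such windows. Neither this division by position nor the share near other genes was worked out for all genes. The members' windows held 68 series-wide peaks: 21 at a gene end, 28 inside the member away from its ends and 19 outside it. Each of the 68 was overlapped by a peak of both replicates. Series-wide folds come from the replicate lists, so this overlap is not separate support. Of those 19, 9 lay within 1 kb of an end of another protein-coding gene, such as the peak near Gabrr2 in the window of Ube2j1 (30.0 and 31.0). Strand was known for 18 of the 21 end peaks. Of these, 15 had the series-wide summit within 1 kb of the start, 9 within 300 bp, and 12 upstream of it. A series-wide summit can differ from those of the replicates. At Ube2g1 it lay 334 bp upstream, and those of the highest end peaks lay 177 bp upstream in replicate 1 and 136 bp in replicate 2. Of the 68 peaks 11 were in the top 20% of folds (21.5 and above), a share below the 20.2% of all series-wide peaks at this height. Of these 11, 3 lay at an end of a member (Ube2l6, Ube2j2 and Ube2h), 6 inside a member and 2 outside. By gene, 8.11% of members had a peak of this height at an end (all genes 5.66%) and 27.0% in the wider window (all genes 21.0%). Besides those in Ube2a, Ube2b and Ube2u, peaks of this height inside a member were at Ube2d3 (26.5 and 24.4, 25.4 ± 1.5, SD, n = 2; chr3:135464797-135465140) and Ube2e3 (19.5 and 22.2, 20.8 ± 1.88, SD, n = 2; chr2:78873994-78874397), the latter within 1 kb of an end of the lncRNA gene Gm51431.

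**Figure D3:**
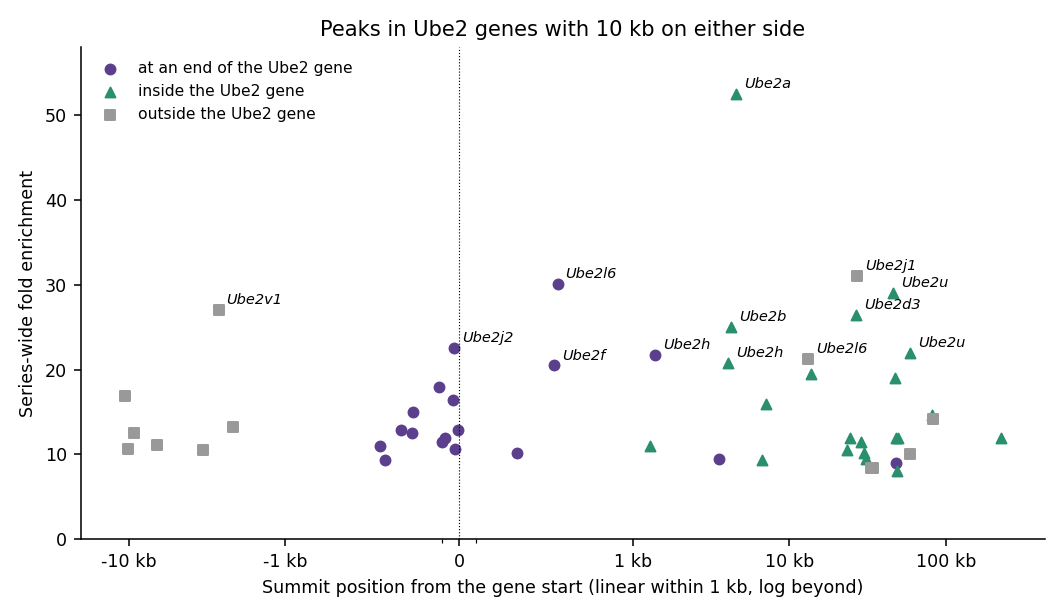
Series-wide fold enrichment against the position of the summit from the gene start, for peaks in the 30 Ube2 genes of known strand with 10 kb on either side; the axis is linear within 1 kb of the start and logarithmic beyond, and names are given at 20-fold and above. The highest peak, inside Ube2a at 52.5-fold, stands apart, and peaks with the summit within 300 bp of a start reach at most 22.6-fold.

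End peaks of members were seldom shared with another protein-coding gene. The strongest end peak lay within 1 kb of an end of another gene of any kind at 8 of 19 members (42.1%, all genes with such a peak 42.0%), but of another protein-coding gene at Ube2e1 alone (5.26%, all genes 30.6%). For the other 7 the neighbour was an lncRNA gene or, at Ube2d2a, a pseudogene. End peaks of members had a median width of 537 bp, and all series-wide peaks, at any position, 441 bp. These sets are unlike, because the width of end peaks over all genes was not worked out. A series-wide peak overlapped a listed promoter of 14 of 30 members (46.7%, all genes 32.5%).

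Motifs were searched in these promoters on both strands. The motif TGATGNAA occurred in 0 of 41 member promoters and in 3.6% of 21263 promoters of protein-coding genes, and TGACGNAA in 0 of 41 and 1.94%. The motif TGACGTCA, which reads the same on both strands, occurred in 2 of 41, those printed above, and in 2.23% of all. Over all genes, promoters under a series-wide peak held TGACGTCA in 4.17% and TGACGNAA in 3.92%, and promoters without one in 1.38% and 1.06%, whereas TGATGNAA was found in 2.33% and 4.17%. No run of bases can match more than 1 of the 3 motifs, though matches may overlap in part. A match describes letters in a window of 300 bases and does not show a site in use. No match in a member says only that these letters are not in that window.

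Other genes of the cascade were taken from 3 lists of 28 genes in all, of which 20 had a series-wide peak at a gene end and 24 had one in both replicate lists, where 34.9% and 45.2% of all protein-coding genes did. No test was made of these counts. Of 9 genes for E1 enzymes and their subunits 6 had one, the highest at Uba7. Uba7, which activates ISG15, had 24.5 and 29.3, 26.9 ± 3.36 (SD, n = 2). Uba7 and Ube2l6 are thus the highest of the E1 list and of the Ube2 genes, and both serve ISG15, a pairing singled out after the values were seen. Isg15 itself had no peak at a gene end in any list and a series-wide peak of 19.9-fold within 10 kb. Uba1, the main E1 for ubiquitin, had no end peak in any list, Uba2 had one in replicate 2 only (8.87), and Sae1 had 7.0 and 11.5 in the replicate lists alone.

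Ubiquitin and its relatives had series-wide end peaks at 8 of 11 genes. The stress-responsive polyubiquitin gene Ubb had 19.5 and 19.9, 19.7 ± 0.315 (SD, n = 2), and Rps27a, which encodes ubiquitin fused to a ribosomal protein, had 16.0 and 18.6. Sumo3 and Isg15 were among the 3 without one. Among 8 conjugating enzymes without the Ube2 symbol 6 had one. Birc6, a giant inhibitor of apoptosis, had 13.5 and 19.5, 16.5 ± 4.24 (SD, n = 2), and Cdc34, which works with cullin ligases, had 16.5 and 19.1. Tsg101, an inactive variant of the endosomal sorting machinery, had no peak in any list at its ends, and Atg3, which conjugates LC3, had replicate peaks only (9.0 and 6.65). The plot of the cascade genes shows the 3 lists. The median of the strongest end peak was 10-fold over the E1 list, 12.8-fold over ubiquitin and its relatives and 12.2-fold over the other conjugating enzymes, beside 12.9-fold for the Ube2 genes.

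**Figure D4:**
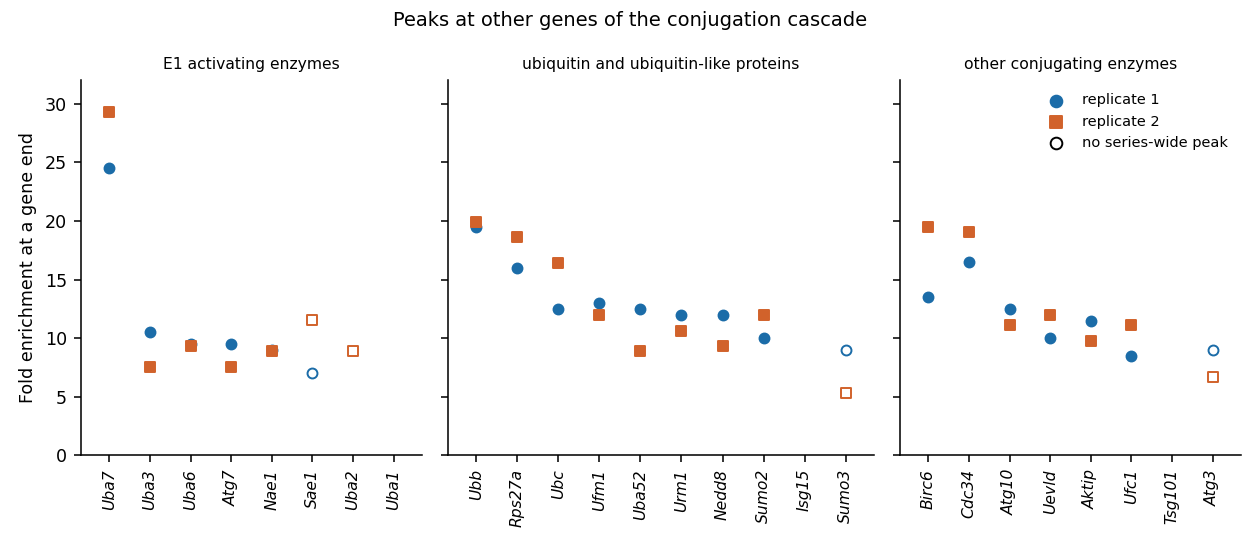
Fold enrichment at the gene ends of 26 of the 28 other genes of the cascade in 3 lists, in replicate 1 (circles) and replicate 2 (squares); open symbols mark genes with no series-wide peak at their ends, and genes without a symbol had no end peak in any list. Uba7 is the highest at 24.5 and 29.3, and Uba1, Isg15 and Tsg101 have no symbol.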

How the data were processed

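Peak lists of ATF4 pull-down from mouse heart ventricle were used as deposited by the authors: 1 per pull-down sample and 1 for the series. Bowtie2, MACS2, deepTools and mm10 are the tools and build in the submitters' processing notes; their roles, versions and settings are not given in the sources used here. Replicate lists give a −log10 p-value or q-value per peak, as deposited by the authors, and the series-wide list gives the authors' fold ratio; 0 value columns were left unmapped. Replicate folds were read from peaks with the same coordinates and summit in both kinds of list (17420 and 21053; 135 of 141 and 139 of 153 values). Of the other values, 4 and 5 at the low end continued the steps downwards, and 2 and 9 in between took the nearest whole step; 6 pairs of value and fold off the step in replicate 2 were dropped. The folds equal (pileup + 1) over (background + 1) with constant backgrounds of 1.00 and 1.26, and were not scaled between samples.

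Genes, spans and promoters came from RefSeq (GRCm38.p6); strand came from its promoter table, which matched 30 of 37 members. Overlap of at least 1 bp with a window counted. The windows and motifs were searched without a test. Values in both replicates are given for the 12 members of highest fold at a gene end. Members with no end peak in any list or in 1 replicate only, those with the most peaks, and in each cascade list the 2 highest and those without a peak are named; other names were chosen after values were seen, and a few results for single genes are not reported here. Members and lists were chosen with earlier results of these data known. The window search was tested on simulated data over 21900 genes and found all 200 planted peaks. Alternatives were other windows, midpoints, stronger peaks and single replicates. Python 3.11.15, NumPy 2.4.6, pandas 2.3.3 and Matplotlib 3.10.9 were used.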

Additional observations from a re-analysis of the deposited data

How the results depend on the processing

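Of all 37 members, 19 had a series-wide peak at a gene end. The number was 8 of 37 with the 50% of peaks of highest fold (all genes 16.7%). It was 3 of 37 (8.11%) with the 20% of highest fold (all genes 5.66%). The count was between 31 and 32 with a single replicate list. Other windows, midpoints, peaks found in both replicates and listed promoters gave 14 to 25. The setting of peaks found in both replicates could hardly move the count, because series-wide folds come from the replicate lists. The share of all genes moved with the window, to 47.4% at 5 kb, 31.8% at 500 bp and 32.9% around the start only. The counts around the start only (15) and over listed promoters (14, chosen after seeing the data) rest on the 30 members of known strand. The count for the gene body with 10 kb was 20 in place of 32 with the 50% of peaks of highest fold, between 35 and 37 with a single replicate list, and 27 for the gene body alone (all genes 48.4%). With the 50% of each replicate list with the highest values, 18 members in place of 30 had end peaks in both replicate lists. No share of all genes was worked out for this count of 18, nor for the gene-body count of 20. These counts therefore do not show whether members stayed above all genes at those settings. The median fold at the ends was between 9.50 and 10.2 in a single replicate, against 12.9; the lowest fold was 5.50 and 5.32 in the replicate lists and 7.5 in the series-wide list. No paired analysis was possible because the input samples with the same numbers have no peak list used here, and the results come from no test. Depth is unknown, and no counting error was worked out for weak peaks.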
